A study of Caenorhabditis elegans with 2 samples.

Results

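The small-subunit ribosomal protein genes of Caenorhabditis elegans, whose symbols start with rps-, were examined for binding of the nuclear hormone receptor NHR-47. Membership was set by symbol alone, although the set was chosen with earlier results of these data known. These genes number 31 of the 19973 protein-coding genes on the 6 nuclear chromosomes. Of them 10 lie on IV, 9 on III, 8 on I, 3 on V, 1 on II and none on X. Sites were mapped by ChIP-seq, in which chromatin is precipitated with an antibody and the DNA that comes with it is sequenced. An anti-GFP antibody was used, although another label field gives the antibody target as nhr-47. The only group was strain OP481, which carries the unc-119(tm4063) III allele and the transgene wgIs481 for NHR-47 with a GFP-FLAG tag at its C terminus. The worms were hermaphrodites in the first larval stage (L1), taken 6 h after synchronization as starved L1 larvae obtained by bleaching, as 2 biological replicates of whole animals from 1 transgenic line. The tissues in which NHR-47 met these genes are therefore not resolved, and no immunoprecipitation from worms without the transgene was used here. With 1 group of 2 replicates no test between conditions was possible, so the values below are descriptions, with the spread between the replicates where each has one.

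The cytosolic small subunit, or 40S subunit, holds the messenger RNA and reads its codons, and it is built from 1 ribosomal RNA and a set of proteins made in equal numbers. Its head, beak, platform and body are named from its shape, and the genes are grouped below by the part in which their product sits in yeast and mammals. Ribosomal protein genes are among the most highly expressed genes of growing cells, and larvae of the L1 stage resume growth when food returns. Many worm transcripts are trans-spliced: the first stretch of the RNA is removed at an acceptor site and replaced by a short leader, so the annotated 5′ end can lie downstream of the place where transcription starts. Nuclear hormone receptors bind DNA through zinc fingers, and the worm has a greatly expanded family of them, to which NHR-47 belongs.

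Short stretches of DNA under the peaks carry much of what follows, so they are shown first. Each covers 50 bp to either side of a summit, the position of highest signal in a peak, from the ce11 build (WBcel235) as held by RefSeq. Each reads 5′ to 3′ on the strand of its gene, and coordinates are counted from 1. They are examples chosen to show strong and weak peaks, from the strongest to the weakest, and not a full set: other peaks, such as those of rps-22 and rps-14 among the stronger and rps-5 and rps-8 among the weaker, also held 1 or more of the marked sequences, and the counts over all 26 are given further on. Capitals mark CGCAGC, the sequence AAAGGC and the sequence GGTCTC on either strand, 3 sequences picked out after the peaks had been read.
rps-12 (chrIII:5679079-5679179, plus strand): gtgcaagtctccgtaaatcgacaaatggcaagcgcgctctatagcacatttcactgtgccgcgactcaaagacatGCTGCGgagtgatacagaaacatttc
rps-28 (chrIV:1659194-1659294, plus strand): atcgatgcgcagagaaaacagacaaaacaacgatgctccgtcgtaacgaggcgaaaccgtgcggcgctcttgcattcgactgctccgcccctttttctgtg
rps-24 (chrIV:385515-385615, plus strand): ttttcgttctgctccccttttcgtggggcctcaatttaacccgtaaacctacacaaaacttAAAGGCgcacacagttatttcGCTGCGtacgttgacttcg
rps-23 (chrIV:12391284-12391384, minus strand): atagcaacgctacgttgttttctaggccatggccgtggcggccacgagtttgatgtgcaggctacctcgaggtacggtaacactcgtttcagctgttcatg
rps-4 (chrIV:7084907-7085007, minus strand): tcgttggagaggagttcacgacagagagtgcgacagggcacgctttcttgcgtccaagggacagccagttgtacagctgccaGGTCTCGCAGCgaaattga
rps-21 (chrIII:7189889-7189989, minus strand): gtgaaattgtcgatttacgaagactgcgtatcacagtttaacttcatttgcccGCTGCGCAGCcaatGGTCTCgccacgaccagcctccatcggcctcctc
rps-11 (chrIV:11602249-11602349, plus strand): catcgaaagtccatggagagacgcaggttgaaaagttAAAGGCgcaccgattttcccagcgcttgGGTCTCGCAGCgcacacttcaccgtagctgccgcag
rps-3 (chrIII:6206404-6206504, plus strand): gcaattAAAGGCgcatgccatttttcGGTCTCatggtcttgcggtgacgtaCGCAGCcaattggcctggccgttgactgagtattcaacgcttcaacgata
rps-9 (chrII:11126571-11126671, minus strand): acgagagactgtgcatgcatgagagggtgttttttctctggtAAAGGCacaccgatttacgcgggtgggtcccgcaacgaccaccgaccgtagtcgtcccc
rps-25 (chrIV:5947896-5947996, minus strand): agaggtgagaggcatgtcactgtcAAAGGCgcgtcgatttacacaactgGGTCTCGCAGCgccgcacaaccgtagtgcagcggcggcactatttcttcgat

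NHR-47 peaks lay upstream of most small-subunit genes. A promoter window, reaching 500 bp upstream and 200 bp downstream from the annotated 5′ end, held a summit of the authors' thresholded list at 26 of the 31 genes (83.9%, exact 95% interval 66.3 to 94.5%, counting error only). The same window held one at 38 of 47 large-subunit genes (80.9%, 66.7 to 90.9%) and at 12.8% of all protein-coding genes. The intervals of the 2 subunits overlap over most of their length, so no difference between them is shown. Genes for the small subunit of the mitochondrial ribosome, whose symbols start with mrps-, had a summit at 14 of 29.

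The pooled list, which holds 30000 regions and extends well below the threshold, put a summit at 27 small-subunit genes, 42 large-subunit genes and 28.3% of all genes. In the lists of the single replicates, also 30000 regions each, the small-subunit count was 29 in replicate 1 (all genes, 29.8%) and 28 in replicate 2 (all genes, 28.6%). When each replicate was limited to its 5357 strongest regions, as many as the thresholded list holds, 27 small-subunit genes had a summit in replicate 1 (all genes, 13.1%) and 27 in replicate 2 (all genes, 12.9%). The gene added to the 26 was rps-27 in replicate 1 and rps-29 in replicate 2.

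**Figure D1:**
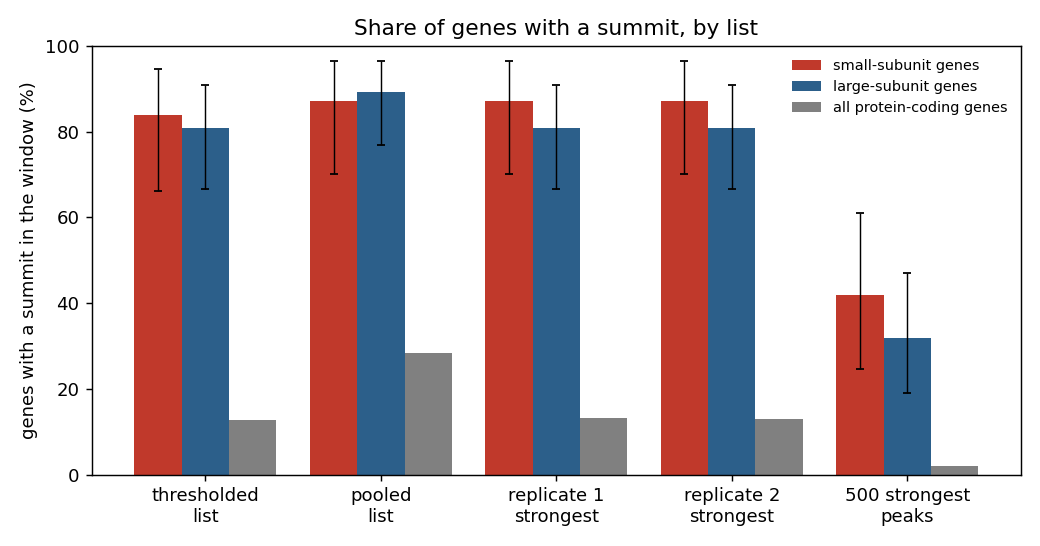
Bars give the share of genes (%) with a summit in the promoter window, for small-subunit genes (n = 31), large-subunit genes (n = 47) and all protein-coding genes (n = 19973), in 5 lists; lines on the bars of both subunits are exact 95% intervals. In the thresholded list the shares are 83.9%, 80.9% and 12.8%.

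The peaks were also strong. Signal is the authors' score of a peak, and it is given here relative to the median thresholded peak, which has a value of 1. Over the 26 genes with a summit the median was 3.74, with a range of 0.536 to 12.2, and 24 of the 26 lay above 1. So did 35 of the 38 large-subunit genes with a summit and 1690 of the 2566 protein-coding genes with one. The median was 3.05 for large-subunit genes, 1.21 for mitochondrial small-subunit genes and 1.45 for all genes with a summit. With every small-subunit gene counted and those without a region set at 0, the median was 2.76 for the small subunit, 2.39 for the large subunit and 0 for all genes. The 500 strongest peaks supplied a summit to 13 small-subunit genes, 15 large-subunit genes and 2.04% of all genes. The 100 strongest supplied one to 6 small-subunit genes, 7 large-subunit genes and 76 genes in all. None of the small-subunit peaks reached the strongest of the large subunit, rpl-3 at 26 and rpl-20 at 20.6.

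Each of the 26 genes had exactly 1 thresholded summit in its window, and the 26 summits belonged to 26 distinct peaks. A single summit was also usual among all genes with one, at 97.2%. The peaks had widths of 150 to 437 bp and a median of 319.5 bp, against 420 bp over the whole thresholded list. The weakest of the 26, rps-2 and rps-25, were each 420 bp wide. Widths were not compared between peaks of like signal, so no width particular to these genes is shown.

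The replicates gave close values at these genes. The log2 ratio of replicate 1 to replicate 2, each scaled by its own median peak, had a median of 0.03, a range of -0.47 to 0.48 and an SD of 0.19. All 26 genes lay within 1.5-fold between replicates. Over all thresholded peaks found in both replicates the SD was 0.50, and 82.4% lay within 1.5-fold. Most small-subunit peaks were strong, and over the 2656 such peaks with a relative signal above 1 the SD was 0.31 and 94.0% lay within 1.5-fold. The thresholded list was itself made from both replicates.

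**Figure D2:**
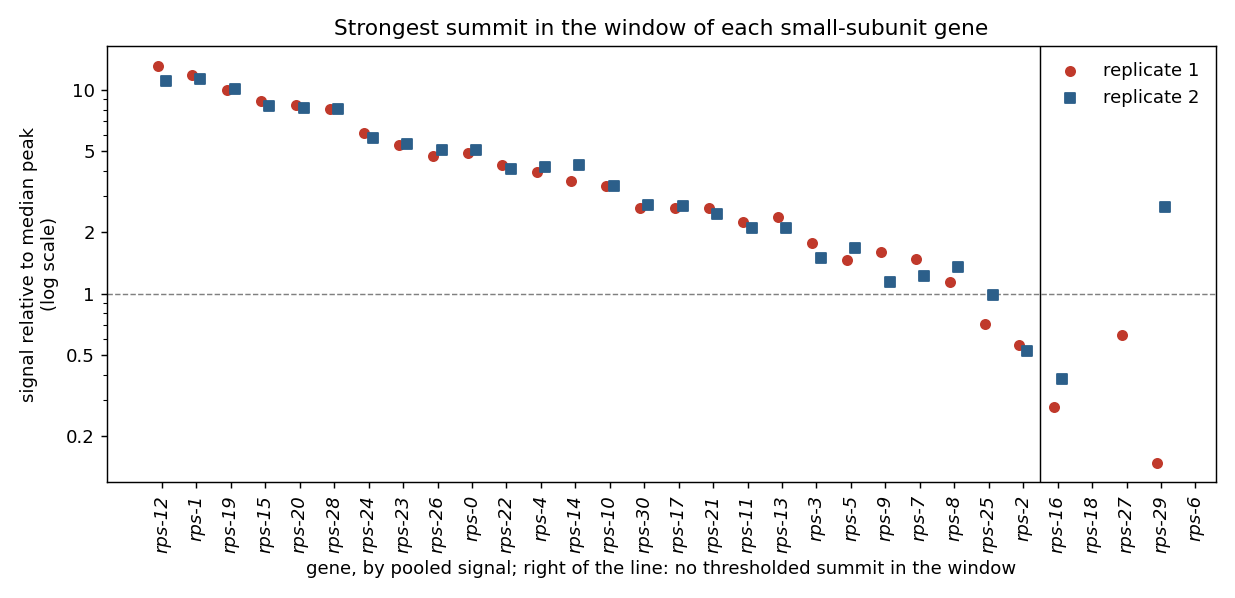
Points give the signal of the strongest summit in the window of each small-subunit gene, relative to the median peak (dashed line at 1) and on a log axis, in replicate 1 (circles) and replicate 2 (squares), with genes in order of pooled signal. Values fall from 13.1 and 11.1 at rps-12 to 0.559 and 0.521 at rps-2; the 5 genes right of the vertical line have no thresholded summit in the window, and a missing point means no region in that replicate's list.

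Genes for proteins of the head held 5 of the 6 strongest peaks of the set. Of 13 head genes 10 had a thresholded summit, with a median relative signal of 5.85, and of 18 body and platform genes 16 had one, with a median of 3.41. The ranges of the 2 groups overlapped almost wholly, from 0.901 to 12.2 for the head and from 0.536 to 11.8 for the body and platform, so the medians mark no separation between them.

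The strongest peak of all was at rps-12, whose protein sits in the beak of the head. It ran on III from 5678939 to 5679325 and ranked 39th of the 5357 thresholded peaks. Relative signals were 13.1 in replicate 1 and 11.1 in replicate 2, or 12.1 ± 1.45 (SD, n = 2), and the summit was at the same base, 169 bp upstream, in both. The peak at rps-19, a gene whose human counterpart is mutated in Diamond-Blackfan anaemia, had 9.97 and 10.2 (10.06 ± 0.134, SD, n = 2). At rps-15, which encodes a head protein close to the decoding site, the replicates gave 8.86 and 8.31 (8.58 ± 0.390, SD, n = 2). The head gene rps-20 had 8.39 and 8.13 (8.26 ± 0.186, SD, n = 2). For rps-28, whose protein lines the exit of the messenger RNA channel, the values were 8.08 and 8.03 (8.05 ± 0.0391, SD, n = 2). All 5 of these head genes ranked among the 100 strongest peaks, with rps-28 at rank 100 exactly.

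The other head genes spread over the rest of the range. At rps-10, a beak protein gene, the pooled relative signal was 3.44, and at rps-17, also mutated in Diamond-Blackfan anaemia, it was 2.76. The gene rps-3, for a protein at the messenger RNA entry channel with a second role in DNA repair, had 1.68, and rps-5, for a protein on the exit side of that channel, had 1.60. The weakest was rps-25, whose protein is needed for initiation at some viral internal entry sites in yeast and mammals, with 0.711 in replicate 1 and 0.985 in replicate 2 (0.848 ± 0.193, SD, n = 2). Both of its values fell below the median peak. Its summits lay 325 bp upstream in replicate 1 and 306 bp upstream in replicate 2, while the pooled summit lay 341 bp upstream.

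Among genes of the body and platform, rps-1 led. Its product, called RPS3A in mammals, sits on the platform. The peak ran on III from 4475452 to 4475876, ranked 46th and had relative signals of 11.9 and 11.4 (11.6 ± 0.371, SD, n = 2). Next came rps-24, another Diamond-Blackfan anaemia gene in humans, which had 6.17 and 5.78 (5.97 ± 0.280, SD, n = 2). The decoding-centre protein gene rps-23 had 5.34 and 5.43 (5.38 ± 0.0690, SD, n = 2).

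A cluster of body and platform genes followed at close to 4 to 5 times the median peak. The gene rps-26, whose protein contacts messenger RNA upstream of the start codon in yeast, had 4.76 in replicate 1 and 5.04 in replicate 2. For rps-0, the counterpart of human RPSA, the values were 4.88 and 5.06. At rps-22, called RPS15A in mammals, they were 4.30 and 4.07, and at rps-4 they were 3.96 and 4.18. The order of rps-22 and rps-4 differed between the replicates, and rps-26 and rps-0 were closer to each other in each replicate than either gene's replicates were, so neither pair can be ranked. The platform gene rps-14 stood just below, with 3.57 and 4.29.

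The remaining body and platform genes lay between 0.536 and 2.79 in the pooled list. In falling order they were rps-30 (2.79), rps-21 (2.56), rps-11 (2.25), rps-13 (2.24), rps-9 (1.37), rps-7 (1.32), rps-8 (1.30) and rps-2 (0.536), each a pooled relative signal. Of these, rps-11 and rps-13 cannot be ranked, since rps-13 was the higher in each replicate (2.37 and 2.11 against 2.25 and 2.10). In replicate 1 rps-30 and rps-21 both had 2.63. The order of rps-9, rps-7 and rps-8 is not resolved, since their replicate values overlap: 1.59 and 1.14 at rps-9 (1.37 ± 0.319), 1.48 and 1.23 at rps-7 (1.35 ± 0.179), and 1.14 and 1.36 at rps-8 (1.25 ± 0.150, SD, n = 2 each). The weakest peak of the 26 was at rps-2, whose protein lines the messenger RNA entry channel, with 0.559 and 0.521 (0.540 ± 0.0268, SD, n = 2). It ranked 4917th of 5357, close to the threshold, and the ratio of the strongest small-subunit peak to it was 22.7.

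Every one of the 26 summits lay upstream of the 5′ end, and most fell in a narrow band. The median distance was 278 bp upstream, the quartiles were 253.75 and 341.75 bp, and the range was 110 bp at rps-22 to 447 bp at rps-28. The band from 200 to 400 bp upstream held 21 of the 26 (80.8%). It held 29 of 38 large-subunit summits (76.3%), with a median of 296.5 bp, and 35.2% of those of all genes, with a median of 178 bp. Mitochondrial small-subunit genes had a median of 144 bp. Among all genes with a summit, 93.1% had the strongest one upstream. The summits of replicates 1 and 2 were a median of 9 bp apart at small-subunit genes, 24 of the 26 pairs were within 20 bp, and the largest gap was 30 bp, at rps-2. The scatter of distances between genes was thus far wider than that between replicates of a gene.

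**Figure D3:**
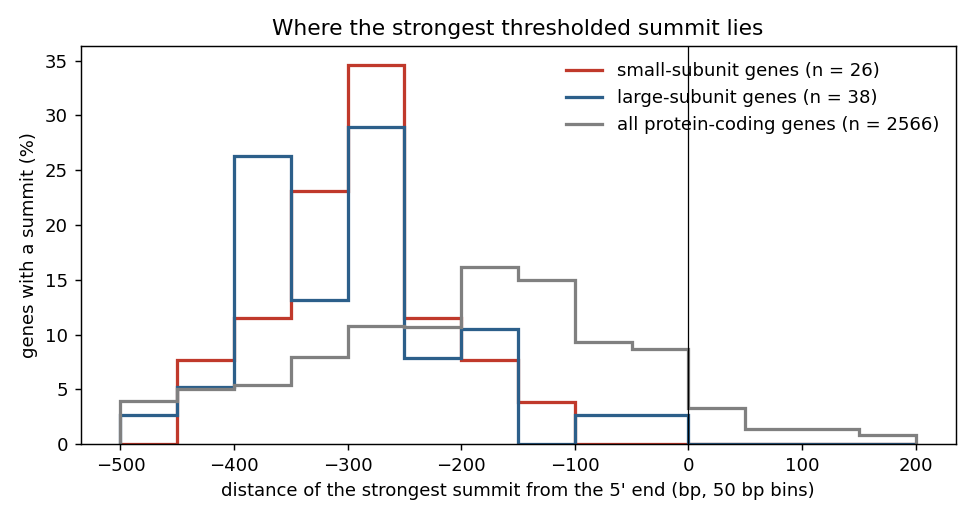
Lines give the share of genes (%) whose strongest thresholded summit falls in each 50 bp bin of distance from the annotated 5′ end, for small-subunit genes (n = 26), large-subunit genes (n = 38) and all protein-coding genes (n = 2566). Both ribosomal sets gather from 200 to 400 bp upstream, which holds 80.8% of the small-subunit summits, 76.3% of the large-subunit summits and 35.2% of those of all genes.

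Most annotated 5′ ends of these genes were preceded by AG, the dinucleotide that ends a splice acceptor. It stood directly before the 5′ end at 28 of 31 small-subunit genes (90.3%), at 38 large-subunit genes (80.9%) and at 27.6% of all genes. The worm acceptor sequence TTTCAG lay within the 20 bases before it at 15 small-subunit genes (48.4%), 24 large-subunit genes (51.1%) and 14.7% of all genes. The last 20 bases before 4 of the annotated ends, with TTTCAG in capitals, show the range from a full acceptor to none.
rps-12 (chrIII:5679278-5679297, plus strand): tcgaaatttctaatTTTCAG
rps-28 (chrIV:1659671-1659690, plus strand): ataatttcaatttcTTTCAG
rps-25 (chrIV:5947606-5947625, minus strand): catatgaattgtctttacag
rps-24 (chrIV:385867-385886, plus strand): aaactacaattcaaatttat
Distance moved with this feature over the genome: the median summit lay 227 bp upstream of genes with AG at the 5′ end and 135 bp upstream of genes without it. For the 24 small-subunit genes with both an AG and a summit the median was 278 bp, and for the 2 without AG, rps-22 and rps-24, it was 216 bp. How much of the distance the trans-spliced part of the RNA makes up was not tested.

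Summits mostly lay outside annotated exons. Of the 26 summits 23 were intergenic, 3 lay in an exon of a noncoding gene (rps-1, rps-10 and rps-30), and 0 lay in an exon or intron of a protein-coding gene. The windows lie mostly upstream of the genes. The same count was not made for other genes with a summit, so these counts show no trait particular to this set.

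Many of these peaks stood between 2 genes that face away from each other. A protein-coding gene on the opposite strand started within 1000 bp upstream at 19 of 31 small-subunit genes (61.3%), 28 large-subunit genes (59.6%) and 17.7% of all genes. The strongest summit also lay in the window of another gene at 14 of the 26 (53.8%), against 40.8% of all genes with a summit, and in all 14 cases the partner was on the opposite strand. A peak in such a place cannot be given to one gene by position alone. The median relative signal was 4.64 at the 14 shared summits and 2.40 at the 12 unshared ones. It was 5.04 over the 15 genes with a summit and a divergent neighbour, and 2.25 over the 11 with a summit and none. The ranges overlapped in both splits.

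The partners and their distances from the summit differed from gene to gene. Among the strongest, the summit 169 bp from rps-12 lay 124 bp from ska-3, that of rps-19 was 284 bp from it and 161 bp from hsr-9, and that of rps-20 was 248 bp from it and 149 bp from ekl-4. The 5′ end of the partner was the nearer one in each of these. The peaks of rps-26 and rps-0 lay 49 bp from tmem-107 and 65 bp from rbg-3, much nearer to these than to the ribosomal gene. The rps-15 peak was about midway, 378 bp from rps-15 and 403 bp from F36A2.9. Another 3 peaks stood between a small-subunit and a large-subunit gene, so 1 peak served both: rps-10 with rpl-24.1, rps-14 with rpl-36, and rps-30 with rpl-39. The rps-14 summit was nearer to rps-14 (256 bp against 407 bp from rpl-36), the rps-10 summit nearer to rpl-24.1 (354 bp from rps-10 against 256 bp), and the rps-30 summit about midway (257 bp from rps-30 against 242 bp from rpl-39).

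When a summit counted only for the gene whose 5′ end was nearest, 17 small-subunit genes kept one (all genes, 10.2%). The 9 that lost it were rps-0, rps-3, rps-10, rps-12, rps-19, rps-20, rps-23, rps-26 and rps-30. With a window reaching 300 bp upstream and 100 bp downstream the count was 15 (all genes, 9.77%), since a summit band centred near 278 bp is cut by such a window. With 1000 bp upstream it was 28 (all genes, 15.9%).

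**Figure D4:**
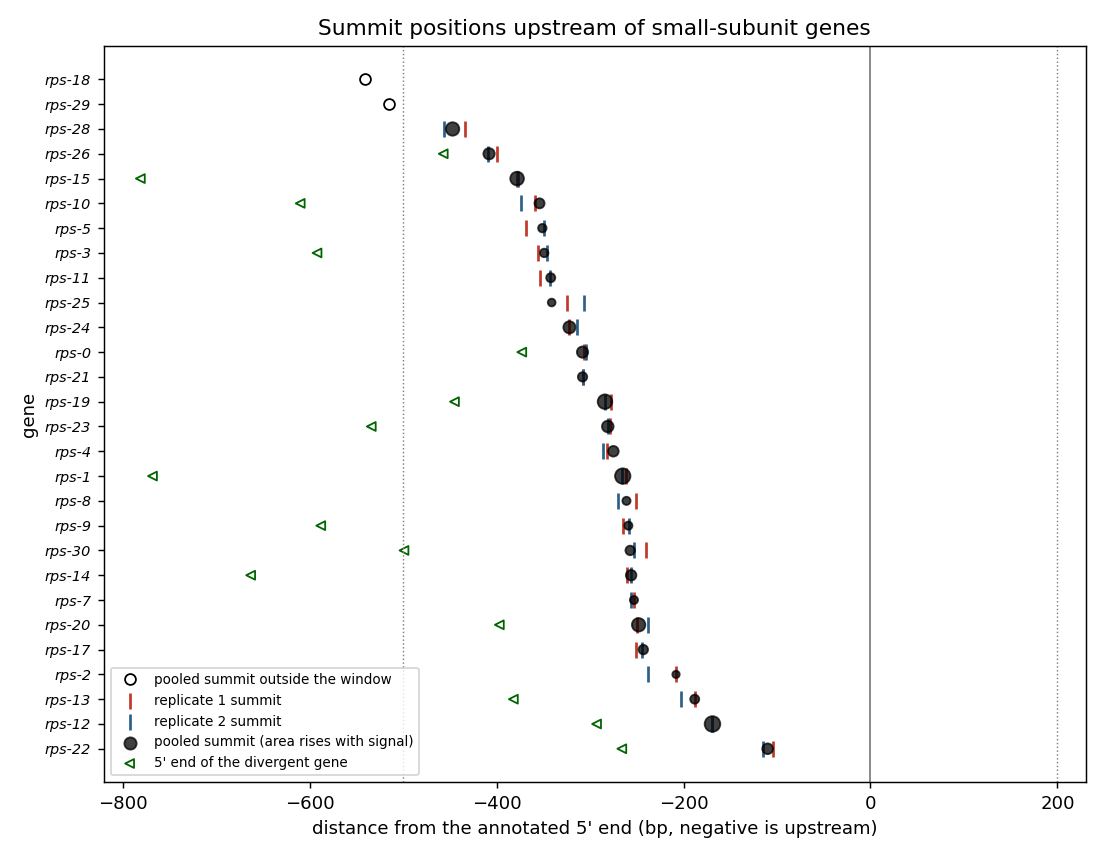
Each row is a small-subunit gene; the horizontal axis is the distance (bp) from its annotated 5′ end at 0, negative upstream. Filled circles are pooled summits with area rising with signal, ticks are the summits of replicates 1 and 2, triangles are 5′ ends of divergent genes (where within 1000 bp), open circles are the summits of rps-18 and rps-29, which lie outside the window (dotted lines at -500 and 200), and most filled circles sit near the median of 278 bp upstream.

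The 5 genes without a thresholded summit in the window were of different kinds. At rps-18 and rps-29, both head genes, a peak lay just beyond the edge. The peak near rps-18 had its summit 541 bp upstream, with a pooled relative signal of 4.13, rank 413, and replicate values of 4.0 and 4.19. It lay in an exon of the divergent gene sec-61.A, 126 bp downstream of the 5′ end of that gene. The peak near rps-29 had its summit 515 bp upstream, with a pooled relative signal of 2.62, rank 839, and it was 52 bp from the divergent gene snt-2. In replicate 1 its summit was 524 bp upstream with a relative signal of 2.49, outside the window, and in replicate 2 it was 496 bp upstream with 2.65, inside it. Replicate 1 had inside the window only a weak region of 0.148, so the 2 values plotted for rps-29 belong to different regions. Both peaks fell within the range of the 26, and counting them accounts for the 28 genes of the 1000 bp window.

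At rps-16 the arrangement was different. The gene fib-1, for fibrillarin, the methyltransferase that modifies ribosomal RNA, ends 110 bp upstream of rps-16 on the same strand. A peak with a relative signal of 5.78, rank 220, lay 86 bp upstream of fib-1 and so 1768 bp upstream of rps-16. It was also in the window of mut-15, on the other side. At rps-16 itself a region below the threshold had its pooled summit 113 bp downstream of the 5′ end, with relative signals of 0.278 and 0.382. Whether fib-1 and rps-16 share a promoter was not tested. A gene on the same strand ended within 500 bp upstream at 4 of 31 small-subunit genes (12.9%) and at 18.1% of all genes, and at the other 3, rps-2, rps-7 and rps-17, a peak stood in the window.

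The last 2, rps-6 and rps-27, had little signal. The gene rps-6 encodes the ribosomal protein that S6 kinase phosphorylates downstream of TOR in mammals and yeast. No list had a region with its summit in the rps-6 window. The nearest pooled summit lay 1176 bp downstream and ranked 5373rd, just past the 5357 peaks of the thresholded list, with a relative signal of 0.491, and the nearest thresholded summit was 82217 bp away. The rps-27 gene, for a zinc-binding protein of the platform in yeast, had a region in replicate 1 only, 33 bp upstream, with a relative signal of 0.625. Replicate 1 also had a region 596 bp upstream of rps-27 with 1.58, and neither had a counterpart in replicate 2 or in the pooled list. A thresholded peak with a relative signal of 0.564 lay 923 bp downstream of the rps-27 5′ end. A lack of a region is a lack of detected signal at a depth that the files do not give, not of the protein.

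The DNA at the summits was rich in G and C. Median GC content within 50 bp of the summit was 52.0% for small-subunit genes, 49.5% for large-subunit genes, 50.5% for the 500 strongest peaks and 45.5% for all thresholded peaks. Short shared sequences were counted on both strands in these same stretches. The 6-base sequences found in at least 10 of the 26 were listed after the counts were seen, so they are descriptions. CGCAGC was in 12 of 26 (46.2%) small-subunit stretches, 10 of 38 (26.3%) large-subunit ones, 9% of the 500 strongest peaks and 4.69% of all thresholded peaks. ACCGTA was in 10 of 26, in 15 of 38 large-subunit stretches, in 9% of the 500 strongest peaks and in 4.24% of all peaks. GGTCTC was in 10 of 26, in 17 of 38, in 11.8% of the 500 strongest and in 6.96% of all. GCGAGA, which can overlap its reverse complement, was in 10 of 26, in 16 of 38, in 17.6% of the 500 strongest and in 9.97% of all. The reverse complement of GCGAGA can also overlap the end of GGTCTC. Both sequences were held by rps-4, rps-7, rps-8, rps-11, rps-21, rps-25 and rps-30. At rps-4, rps-11 and rps-25 GGTCTC ran directly into CGCAGC, with a shared base. The counts of these sequences are therefore not independent of each other. ACGCAG, which overlaps CGCAGC by 5 bases, was in 10 of 26, in 7 of 38, in 21.8% of the 500 strongest and in 14.7% of all. The peaks of rps-10, rps-14 and rps-30 also served a large-subunit gene, so these 3 stretches stand in both sets. All 3 held CGCAGC and ACGCAG, rps-14 and rps-30 held GGTCTC, rps-10 held ACCGTA and rps-30 held GCGAGA. The large-subunit shares of these sequences are therefore not a wholly separate comparison.

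A further sequence, AAAGGC, recurred at a fixed side of the others, as the lines of rps-11, rps-3 and rps-25 above show. It was in 9 of 26 (34.6%) small-subunit stretches, 9 of 38 (23.7%) large-subunit ones, 5.6% of the 500 strongest peaks and 4.80% of all peaks. Within 100 bp of the 26 summits there were 12 copies on the strand of the ribosomal gene and 0 on the other strand. Strands were not counted at other genes, and the sequence was picked from these same windows, so the strand counts are only a description. At 6 genes AAAGGC was followed by GGTCTC on the gene strand, with starts 20 to 28 bp apart. These were rps-17 (25 bp), rps-11 (28 bp), rps-3 (20 bp), rps-7 (25 bp), rps-25 (25 bp) and rps-2 (28 bp). Such a pair, with starts 15 to 35 bp apart on either strand within 100 bp of the summit, was in 23.1% of small-subunit peaks, 4 of 38 large-subunit peaks (10.5%), 0.800% of the 500 strongest and 0.784% of all thresholded peaks (42). The spacing limits and the sequences were both set after these windows had been read, so the small-subunit share is no test.

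Neither AAAGGC nor GGTCTC went with high signal. None of the 12 strongest small-subunit peaks held the pair, and 6 of the other 14 did. Relative signals of the 6 holders ran from 0.536 to 2.76 with a median of 1.5, and those of the 20 others from 1.30 to 12.2 with a median of 4.64. For GGTCTC alone the medians were 2.40 in the 10 holders and 5.27 in the 16 others, and for AAAGGC they were 1.68 in the 9 holders and 5.04 in the 17 others. At least 1 of the 3 sequences lay within 50 bp of the summit at 5 of the 12 strongest peaks and at 12 of the other 14. Among the strongest, rps-12 and rps-19 held CGCAGC and rps-24 held it together with AAAGGC, while rps-28 and rps-23 held none.

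Of 9 known motifs looked for in the whole promoter windows on both strands, none had a share over 1.5 times that in all genes. GACGCA was in 6 of 31 small-subunit windows (19.4%) and in 16.7% of all. The receptor half-site AGGTCA was in 6 (19.4%) against 16.8% of all, and in 0 of the 26 summit stretches against 2.67% of all peaks. GAGAGA was in 13 (41.9%) against 36.8%, with rps-1, rps-24, rps-4 and rps-14 the holders of highest signal. TGACGT was in 8 (25.8%) against 21.5%, led by rps-19, rps-24, rps-26 and rps-21. The TATA-box sequence TATAAA was in 18 (58.1%) against 62.7%, led by rps-1, rps-15, rps-28 and rps-23, and the GATA-type sequence TGATAA in 14 (45.2%) against 53.8%, led by rps-15, rps-28, rps-4 and rps-14. At the summits themselves TATAAA was in 1 of 26 and TGATAA in 0 of 26, and both were also rare over all thresholded peaks, at 6.22% and 5.94%. CCGCCC was in 6 (19.4%) against 13.6%, GCGCGA in 4 (12.9%) against 9.08%, and the E-box CACGTG in 1, rps-11 (3.23%), against 12%. These are matches of letters, not sites of binding.

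Other genes of ribosome production were examined in 3 lists. Of 5 further ribosomal protein and partner genes 4 had a thresholded summit, against 12.8% of all genes. Highest was ubl-1, which encodes a ubiquitin-like sequence fused to a small-subunit protein of the head, with a pooled relative signal of 2.45. The others were rack-1, the scaffold on the head (1.20), and the large-subunit stalk genes rla-0 (0.917) and rla-2 (0.531). The third stalk gene, rla-1, had none. Of 43 ribosome biogenesis genes 20 had one (46.5%), with a median relative signal of 1.93 and a median distance of 156 bp. The strongest were rbd-1, a pre-ribosomal RNA-binding protein gene (6.18 in replicate 1 and 5.50 in replicate 2), fib-1 (5.84 and 5.61), nol-58, a core protein gene of the same RNA-modifying particle as fibrillarin (4.72 and 4.58), and tsr-2 (4.52 and 4.39). Of 10 genes that control ribosome production 5 had one, led by rheb-1, an activator of TOR (3.29 and 3.65), tif-1A, a factor of RNA polymerase I (3.37 and 3.39), rpoa-12, a subunit of that polymerase (1.77 and 1.22), and daf-15, the worm Raptor (1.37 and 1.40). The genes nhr-47, for the tagged receptor, and unc-119, mutated in the strain, had no thresholded summit in the window and no region there in the list of either replicate.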

How the data were processed

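ChIP-seq regions of 2 biological replicates of 1 group were used as the authors deposited them, on ce11. The thresholded and pooled lists were derived from the alignments of both replicates and a control. What the control was is not given in the sources used here. The aligner and peak caller, their settings and the cutoff on the irreproducible discovery rate were not given in the sources used here. The signal column is the caller's score as the authors deposited it and rises with depth. The deposited -log10 q values were read but ranked nothing. Depth per sample is unknown, since the files hold no read counts, so no interval on signal is given, and exact 95% intervals on shares of genes cover counting error only. There were 0 unused per-sample columns.

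A gene's value was its strongest summit in the promoter window (500 bp upstream, 200 bp downstream; Ensembl release 115), counted for every gene whose window held it. Pooled signals were divided by the median thresholded peak (156), and replicate signals by the replicate's median over the 5312 thresholded peaks found in both (66.8 and 92.2). Sequences came from the RefSeq genome of the same assembly. Python 3.11.15, pandas 2.3.3, numpy 2.4.6, scipy 1.17.1 and matplotlib 3.10.9 were used. The counting step was tested on simulated data and recovered 100 of 100 planted summits over 19973 genes.

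Members and lists were chosen with earlier results of these data known. Every member is accounted for. Replicate values are given for the 12 strongest, the 4 weakest and those with none. Some others are named, part of them with replicate values, after their values were seen. Up to 4 genes are named per motif held by at least 1 in 4 members, and up to 4 per pathway list. Of 53 listed biogenesis symbols, 10 were not found in the annotation and were left out. Alternatives changed the window, the 5′ end, the assignment, the threshold, the overlap, the replicates, the scaling, the sequence window and the background.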

Additional observations from a re-analysis of the deposited data

How the results depend on the processing

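The count of small-subunit genes with a summit and their strong signal depended most on the window and on the assignment. With a window of 300 bp before and 100 bp after the 5′ end, 15 genes had a summit, the median distance was 256 bp (-256), the median relative signal over all 31 genes was 0 and 8 genes were in the 500 strongest peaks. When a summit counted only for the nearest gene, the values were 17, 265 bp (-265), 0.901 and 7. The median distance was 282.5 bp (-282.5) with 1000 bp upstream, with any overlap of the interval and with at least 200 bp covered. In single replicates 27 genes had a summit in each, the median distance was 278 to 284 bp (-284 to -278), the median signal 2.63 to 2.69 and the genes in the 500 strongest 12 to 13. The median log2 replicate ratio was -0.23 when scaled by all regions. Of the 9 motifs, 2 had a higher share in small-subunit genes than in the background within 50 bp of summits, against 6 in the promoter windows. Among genes with a pooled region, 96.3% of 27 small-subunit genes had a thresholded summit against 45.4% of 5653 genes, a ratio of 2.12, in place of 6.53 over all genes. Under the other settings 24 to 28 small-subunit genes had a summit, with 8.46% (the stronger peaks, 24 genes) to 28.3% (all pooled regions, 27 genes) of all genes. CGCAGC was in 8 of 26 summits in 51 bp (2.45% of all peaks) and in 12 with 100 bp on each side (7.13%), widths chosen after seeing the data. No paired analysis was possible because the series has 1 group. Depth limits what a missing region shows.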
